A study of Mus musculus with 2 samples.

Results

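The cytosolic ribosomal protein genes encode the protein components of the ribosome that translates nuclear-encoded messages. Members were chosen by gene symbol: Rpl or Rps followed by a number, with an optional letter or paralogue ending, together with Rplp0, Rplp1, Rplp2 and Rpsa. Kinases of the Rps6k family were left out. The rule found 83 genes of 32285 features, of which 48 belong to the large subunit, 32 to the small subunit and 3 to the stalk. Counts are in UMIs, molecular tags that let each captured RNA be counted once, and 82 of the 83 genes had UMIs in the kept cells of both libraries.

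The cells came from tumours of MC38, a mouse colon adenocarcinoma line, and were profiled with a droplet kit that reads the 3' ends of messages. One library carried the genotype label Mbtps1 WT and is called control. The other carried the label Mbtps1 KD and is called knockdown, although the series text speaks of a knockout. The sources used here give no age or sex of host, no number of tumours pooled and no construct, and they ask how loss of the protease in the tumour relates to its surroundings.

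Ribosomal protein messages are among the most abundant messages of a dividing mammalian cell. Most of them begin with a pyrimidine stretch at the 5' end, the terminal oligopyrimidine tract, through which mTOR signalling controls their translation. Ribosome assembly itself takes place in the nucleolus, and surplus ribosomal proteins are degraded, so that message level, protein level and ribosome number need not move together.

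The windows below show pyrimidine runs near the annotated start of members that were higher (Rps12, Rps26, Rplp2), near equal (Rps27) and lower (Rpl7a, Rpl15, Rpl13a, Rpl22l1) when the knockdown's tumour-like cells were set against the control's. Each line runs from 30 bases before to 20 bases after the start that RefSeq annotates on GRCm38.p6, and capitals mark the pyrimidine run, counted from no more than 10 bases before that start. The marked run begins with C, so that T lies directly before the capitals in Rps26, Rplp2 and Rpl22l1. In Rpl7a, too, the pyrimidines go on before the capitals.
Rps12: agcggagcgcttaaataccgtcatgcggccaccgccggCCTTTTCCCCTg
Rps26: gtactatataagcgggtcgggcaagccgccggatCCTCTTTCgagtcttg
Rplp2: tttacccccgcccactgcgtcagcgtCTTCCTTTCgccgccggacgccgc
Rps27: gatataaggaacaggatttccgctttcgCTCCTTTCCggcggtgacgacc
Rpl15: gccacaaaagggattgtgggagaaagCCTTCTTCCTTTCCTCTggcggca
Rpl13a: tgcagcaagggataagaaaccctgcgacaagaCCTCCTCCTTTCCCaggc
Rpl7a: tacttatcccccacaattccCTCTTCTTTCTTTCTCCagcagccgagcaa
Rpl22l1: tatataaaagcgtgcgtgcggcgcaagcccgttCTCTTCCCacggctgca

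These windows lie at chr10:23787190-23787239 for Rps12, chr10:128626487-128626536 for Rps26, chr7:141447621-141447670 for Rplp2 and chr3:90213629-90213678 for Rps27. Those of Rpl15, Rpl13a, Rpl7a and Rpl22l1 lie at chr14:18270967-18271016, chr7:45128726-45128775, chr2:26910777-26910826 and chr3:28805478-28805527. The genes of Rps12, Rps26, Rps27, Rpl15 and Rpl13a are on the minus strand and those of Rplp2, Rpl7a and Rpl22l1 on the plus strand. The marked runs of Rpl7a, Rpl15, Rplp2 and Rps27 begin before the RefSeq start and cross it, and those of Rps12, Rps26, Rpl13a and Rpl22l1 begin after it. Annotations differ in these starts: by the GENCODE gene bounds used for coordinates below, only the windows of Rps27 and Rpl13a reach beyond the gene, and the others lie wholly inside it.

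RefSeq windows of 250 bases before to 50 after the start were found for 63 of the 83 members, in 75 windows. A run of at least 6 C or T bases that begins with C and lies between 10 bases before and 50 after the start was present in 78.7% of the members' windows and in 39.0% of 32775 windows of all other genes. The longest such run of the window began within 5 bases of the annotated start in 22.7% and 7.59%. Windows with a shorter run there and a longer one elsewhere are not counted in these. On either strand, the GABP motif CCGGAAG was present in 36.0% of the members' windows and 8.80% of the others. The YY1 motif AAGATGGCG was present in 8.0% and 1.39%, and the TATA box TATAAA in 9.33% and 13.6%. A match describes letters in a window and shows no binding.

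The control library held 177399315 UMIs and the knockdown library 174190399, of which 11070 and 16695 kept cells, with median depths of 8175.5 and 4549 UMIs, took 81.4% and 76.0%. The protocol gives about 6000 cells loaded and 3000 aimed for. The 2 lists of kept cell barcodes shared 47 barcodes. Of the 29 clusters, 7 were called tumour-like, each with 6 to 9 of the 15 tumour markers past the limits used for naming. Their summed tumour markers stood at 2419 and 2133 CPM (UMIs per 1000000 UMIs), against 117 and 177 CPM in macrophage/monocyte-like cells. UMIs of all 15 were present in tumour-like cells of each library, but macrophage/monocyte-like cells also showed 14 and 15 of them. Fibroblast markers summed to 2883 and 1818 CPM in tumour-like cells. Mbtps1 itself stood at 29.0 CPM in the control and 12.3 CPM in the knockdown tumour-like cells, a ratio of 0.43 (95% interval 0.40 to 0.45), and at 19.4 and 19.1 CPM in macrophage/monocyte-like cells. Each group is 1 library, so no difference below has a replicate check, and all intervals are 95% exact intervals for counting error only.

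The members took 24.7% of all UMIs of the control library and 26.0% of the knockdown library. Among the large classes the share differed more by class than by library. Tumour-like cells stood at 27.9% in control and 27.4% in knockdown, NK-like cells at 28.5% and 27.4%, and T-like cells at 23.6% and 23.9%. Macrophage/monocyte-like cells stood at 16.4% and 16.9%, below the 21.7% and 23.8% of barcodes with at most 100 UMIs, which hold mostly free RNA. The tumour-like share was 1.697 times the macrophage/monocyte-like share in the control library and 1.624 times in the knockdown library.

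Neutrophil-like cells had the lowest share of the named classes, with 12.7% in control and 14.99% in knockdown. Over these 61 and 200 cells the medians per cell were lower, at 5.64% and 12.2%. The pooled ratio ran from 1.105 to 1.791 over the processing settings. Fibroblast-like cells stood at 15.3% and 17.7%, endothelial-like cells at 17.2% and 17.3%, and pericyte/smooth muscle-like cells at 19.1% and 20.7%. Dendritic-like cells, in a cluster led by Ccr7 and Ccl22 but also by the immunoglobulin genes Igkc and Ighg2c, stood at 20.4% and 21.6% and epidermis-like cells at 20.03% and 19.2%. The 60 control and 48 knockdown mast/basophil-like cells stood at 29.9% and 22.5%. Their medians per cell lay close together, at 21.95% and 21.64%, and the pooled ratio ran from 0.725 to 0.9953 over the processing settings. Single cells of 1 class spread widely: the interquartile range in tumour-like cells ran from 23.3% to 32.2% in control and from 23.4% to 31.6% in knockdown.

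**Figure D1:**
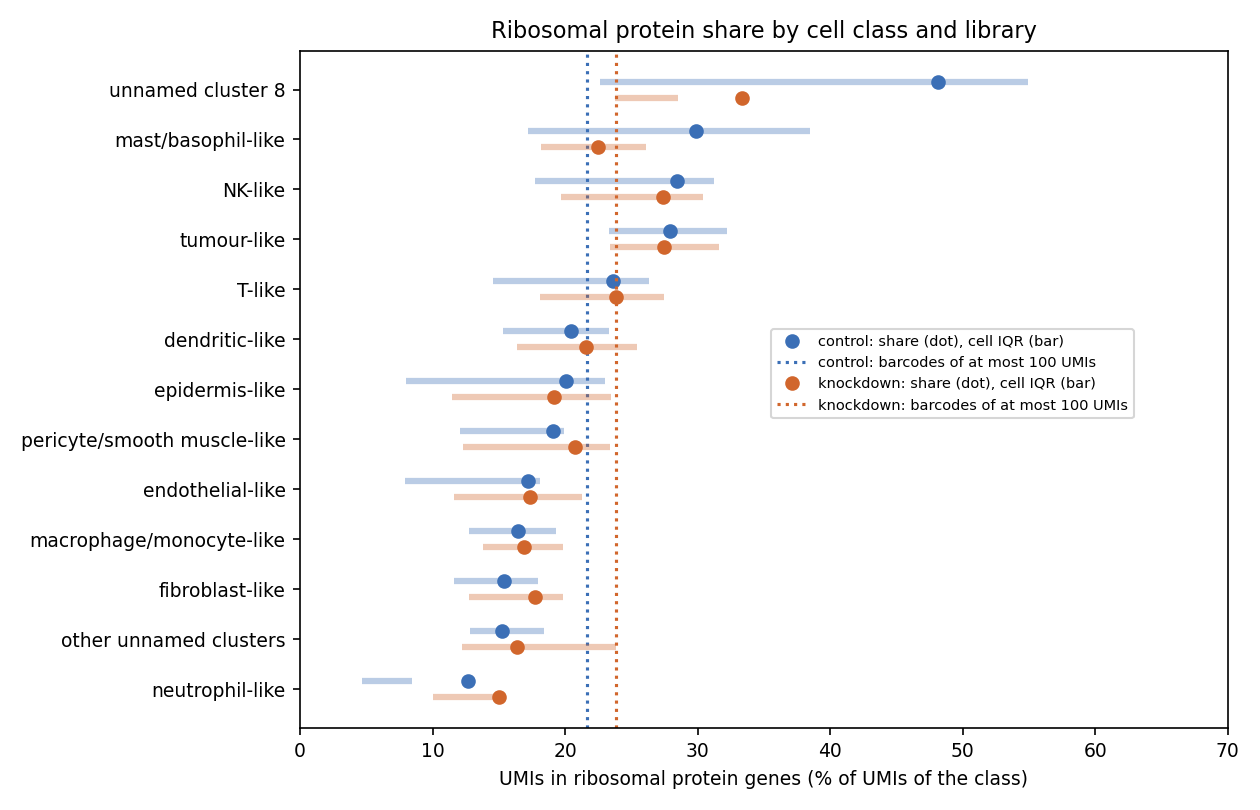
Share of UMIs in the 83 ribosomal protein genes (x axis, percent) for each cell class (y axis) in the control and knockdown libraries. Dots are pooled shares, bars the interquartile range (IQR) over cells, and dotted lines the 21.7% and 23.8% of barcodes with at most 100 UMIs. Tumour-like and NK-like cells lie above macrophage/monocyte-like, fibroblast-like and neutrophil-like cells in both libraries.

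Within a class the clusters differed more than the libraries. Among the 7 tumour-like clusters, cluster 2 had the highest share, 34.2% in control and 33.2% in knockdown. Cluster 9, led by the protocadherin gene Pcdh9, had the lowest, 22.8% and 23.4%, and cluster 5 stood at 24.1% and 23.4%. Cluster 2 was thus on top in both libraries, while clusters 5 and 9 lay close together. Among T-like cells, cluster 7, with Cd8a and Cd8b1 among its leading genes, stood at 25.6% and 24.6%. Cluster 16, led by Tnfrsf4, Icos and Ikzf2, stood at 18.1% and 18.7%, and cluster 23, led by Trdc and Cd163l1, at 16.8% and 21.5% over 19 and 109 cells. Among macrophage/monocyte-like cells, cluster 14, led by Lyz2 and Chil3, stood at 17.7% and 19.9%, and cluster 21, led by Retnla, at 11.2% and 14.1%.

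Between the libraries, the share of the knockdown tumour-like cells was 0.984 times that of the control cells (0.984 to 0.985). The ratio was 1.028 (1.027 to 1.029) in macrophage/monocyte-like cells and 1.009 (1.006 to 1.013) in T-like cells. In the depth band chosen for each class the sides of the first 2 turned, to 1.003 in tumour-like cells of 10000 to 20000 UMIs and 0.977 in macrophage/monocyte-like cells of 5000 to 10000 UMIs. Some other bands kept the main side. Tumour-like shares were 28.2% in control and 26.7% in knockdown at 20000 to 40000 UMIs, although 26.03% and 27.4% at 5000 to 10000 UMIs. Macrophage/monocyte-like shares were 16.03% and 17.4% at 2000 to 5000 UMIs and 15.9% and 16.6% at 10000 to 20000 UMIs. The T-like ratio was 0.994 over cells of at least 2000 UMIs and 1.093 over cells of 2000 to 5000 UMIs. The pooled share therefore had no stable side in any of the 3 classes. NK-like cells had a ratio of 0.962 (0.957 to 0.966), which was 1.029 with cells at equal weight. Dendritic-like cells had 1.057 (1.050 to 1.064) and fibroblast-like cells 1.155 (1.148 to 1.163). Over the processing settings the dendritic-like ratio ran from 1.051 to 1.088 and the fibroblast-like ratio from 1.012 to 1.165.

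Depth moved with the share in a way that differed between the libraries. Control cells under 2000 UMIs held few member UMIs: 12.3% in 45 tumour-like cells, 9.94% in 221 macrophage/monocyte-like cells and 14.9% in 152 T-like cells. Knockdown cells of the same depth held 24.5% in 453, 16.7% in 942 and 22.5% in 948 cells. Pooled from 2000 UMIs on, the shares were 27.9% and 27.5% in tumour-like, 16.5% and 16.9% in macrophage/monocyte-like and 24.7% and 24.5% in T-like cells. The T-like values hide differences of opposite side, with 22.6% in control and 24.7% in knockdown at 2000 to 5000 UMIs and 27.8% and 23.4% at 5000 to 10000 UMIs.

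The shallow control cells also held more of the nuclear RNA Malat1 and more mitochondrial RNA. Malat1 took 1.54% of the UMIs of the shallow control tumour-like cells and 0.571% of those in knockdown, and mitochondrial genes took 3.60% and 3.07%. In shallow macrophage/monocyte-like cells Malat1 took 1.27% and 0.825% and mitochondrial genes 4.73% and 2.01%. Their part in the difference of the member share was not tested.

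**Figure D2:**
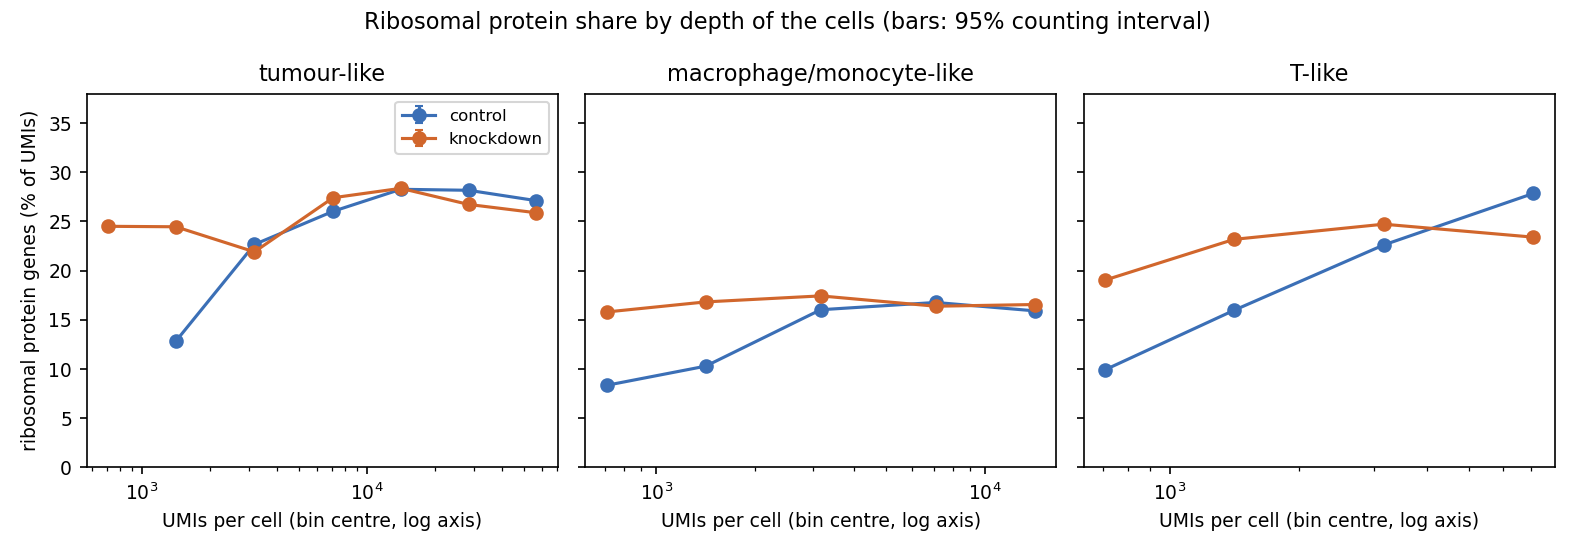
Share of UMIs in ribosomal protein genes (y axis, percent) against UMIs per cell (x axis, log scale, centre of each depth bin) in 3 classes, for bins of at least 20 cells; the last tumour-like bin is open above 40000 UMIs. Lines of the 2 libraries run apart under 2000 UMIs, where the control is lower, and meet or cross at greater depth.

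A cluster that no marker list named, cluster 8, had the highest pooled share in both libraries. In knockdown this did not hold per cell, where the median was 26.1% in cluster 8 and 32.0% in the tumour-like cluster 2. Cluster 8 held 109 control cells and 1507 knockdown cells, with median depths of 4053 and 818 UMIs. Members took 48.1% of its UMIs in control and 33.4% in knockdown. Its cells of at least 2000 UMIs held 49.5% (80 cells) and 49.0% (122 cells), while its shallower cells held 16.03% (29 cells) and 26.2% (1385 cells). In the deeper cells Malat1 took 0.0581% and 0.0648% of UMIs, against 0.626% and 0.534% in tumour-like cells. The summed tumour markers stood at 948 and 814 CPM in them, between the levels of tumour-like and macrophage/monocyte-like cells. This was below the 1678 and 1478 CPM of barcodes with at most 100 UMIs. Macrophage/monocyte markers stood at 828 and 505 CPM in the same deeper cells, against 335 and 308 CPM in tumour-like cells. These markers were far higher in barcodes with at most 100 UMIs (13409 and 8632 CPM) and in macrophage/monocyte-like cells (42175 and 37328 CPM). Xist, whose level parted tumour-like from host clusters in the naming, stood at 14.3 and 3.65 CPM in the deeper cells. In the shallower cells it stood at 249.5 and 48.5 CPM. Tumour-like cells had 3.42 and 3.46 CPM of it and macrophage/monocyte-like cells 577 and 521 CPM. Over the whole cluster Xist was at 31.8 CPM, too high for a tumour-like call. The cluster's leading genes were Cdk8, Gm19951, Cmss1, Lars2 and Gm42418, with Rps12 also among its 10 leading genes.

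Among the most abundant members of tumour-like cells were Rps12, Rpl41, Rpl37 and Rpl23. Rps12, a small-subunit protein of the head of that subunit, stood at 8095 CPM in control and 10501 CPM in knockdown. Rpl41, the smallest protein of the large subunit, stood at 7361 and 9189 CPM. Rpl37 stood at 6421 and 6782 CPM and Rpl23 at 6426 and 6446 CPM. These are levels on the CPM scale of a 3' kit, which counts each captured molecule once whatever its length. The 5 most abundant members took 12.6% of the control and 15.04% of the knockdown member UMIs in tumour-like cells.

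In tumour-like cells 80 of the 83 members reached 50 CPM in 1 library and 50 UMIs over both. The 3 that did not were Rpl10l, Rpl39l and Rpl3l. Of the 80, the knockdown level was at least 25% higher than the control level in 2 and at least 20% lower in 5, against 9.74% and 9.31% of all 3253 features that passed the same limits. The members' 2.50% and 6.25% lie below these background shares. Their ratios ran from 0.70 to 1.30, with a median log2 ratio of -0.07 against 0.03 over all features tested. The counting interval lay above 1 for 25 members, below 1 for 53 and held 1 for 2.

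The 2 members at least 25% higher were Rps12 and Rps26, and Rpl41 lay just inside the limit. Rps12, in 6 exons at chr10:23785183-23787275 (GRCm38, minus strand), had a ratio of 1.297 (1.294 to 1.301), and its annotation overlaps 3 snoRNA genes on the same strand. Rps26, a small-subunit protein near the exit of the messenger RNA channel, stood at 3392 CPM in control and 4244 CPM in knockdown, and Rpl41 had a ratio of 1.248 (1.245 to 1.252). Rps29, a zinc-binding protein of the small subunit, stood at 4744 and 5668 CPM. Rps12, Rps26, Rpl41 and Rps29 were higher in the knockdown library in each of the 7 tumour-like clusters, with Rps12 ratios from 1.23 to 1.38.

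The 5 members at least 20% lower were Rpl7l1, Rpl7a, Rpl22l1, Rpl17 and Rps7. Rpl7l1, an Rpl7-like protein, was the least abundant member past the limits, at 82.9 CPM in control and 57.9 CPM in knockdown, a ratio of 0.698 (0.675 to 0.721). Rpl7a, a large-subunit protein, stood at 1347 and 1043 CPM, and Rpl22l1, a paralogue of Rpl22, at 631 and 492.5 CPM. Rpl17, a protein around the exit of the large subunit's peptide tunnel, stood at 3249 and 2542 CPM, and Rps7, a small-subunit protein, at 3299 and 2630 CPM. All 5 were lower in the knockdown library in each of the 7 tumour-like clusters.

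By role, the 45 large-subunit members past the limits had a median ratio of 0.941 in tumour-like cells, with 11 intervals above 1 and 33 below. The 32 small-subunit members had a median of 0.973, with 12 above and 19 below. UMIs of small-subunit members over those of large-subunit and stalk members together went from 0.776 in control to 0.819 in knockdown in tumour-like cells. The same quotient went from 0.789 to 0.815 in macrophage/monocyte-like cells and from 0.795 to 0.815 in T-like cells, and it was higher in the knockdown library in all 12 cell sets measured.

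The 3 stalk proteins, which recruit translation factors to the large subunit, had ratios on both sides of 1. In tumour-like cells the scaffold gene Rplp0 stood at 5526 CPM in control and 4959 CPM in knockdown. Rplp1 stood at 5694 and 6106 CPM and Rplp2 at 2869 and 3305 CPM. The ratio of Rplp0 was thus under 1 (0.897) and those of its partners above 1 (1.072 and 1.152). T-like cells had the same order, with 0.908, 1.085 and 1.099, although the Rplp0 ratio there was 1.011 in cells of like depth.

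**Figure D3:**
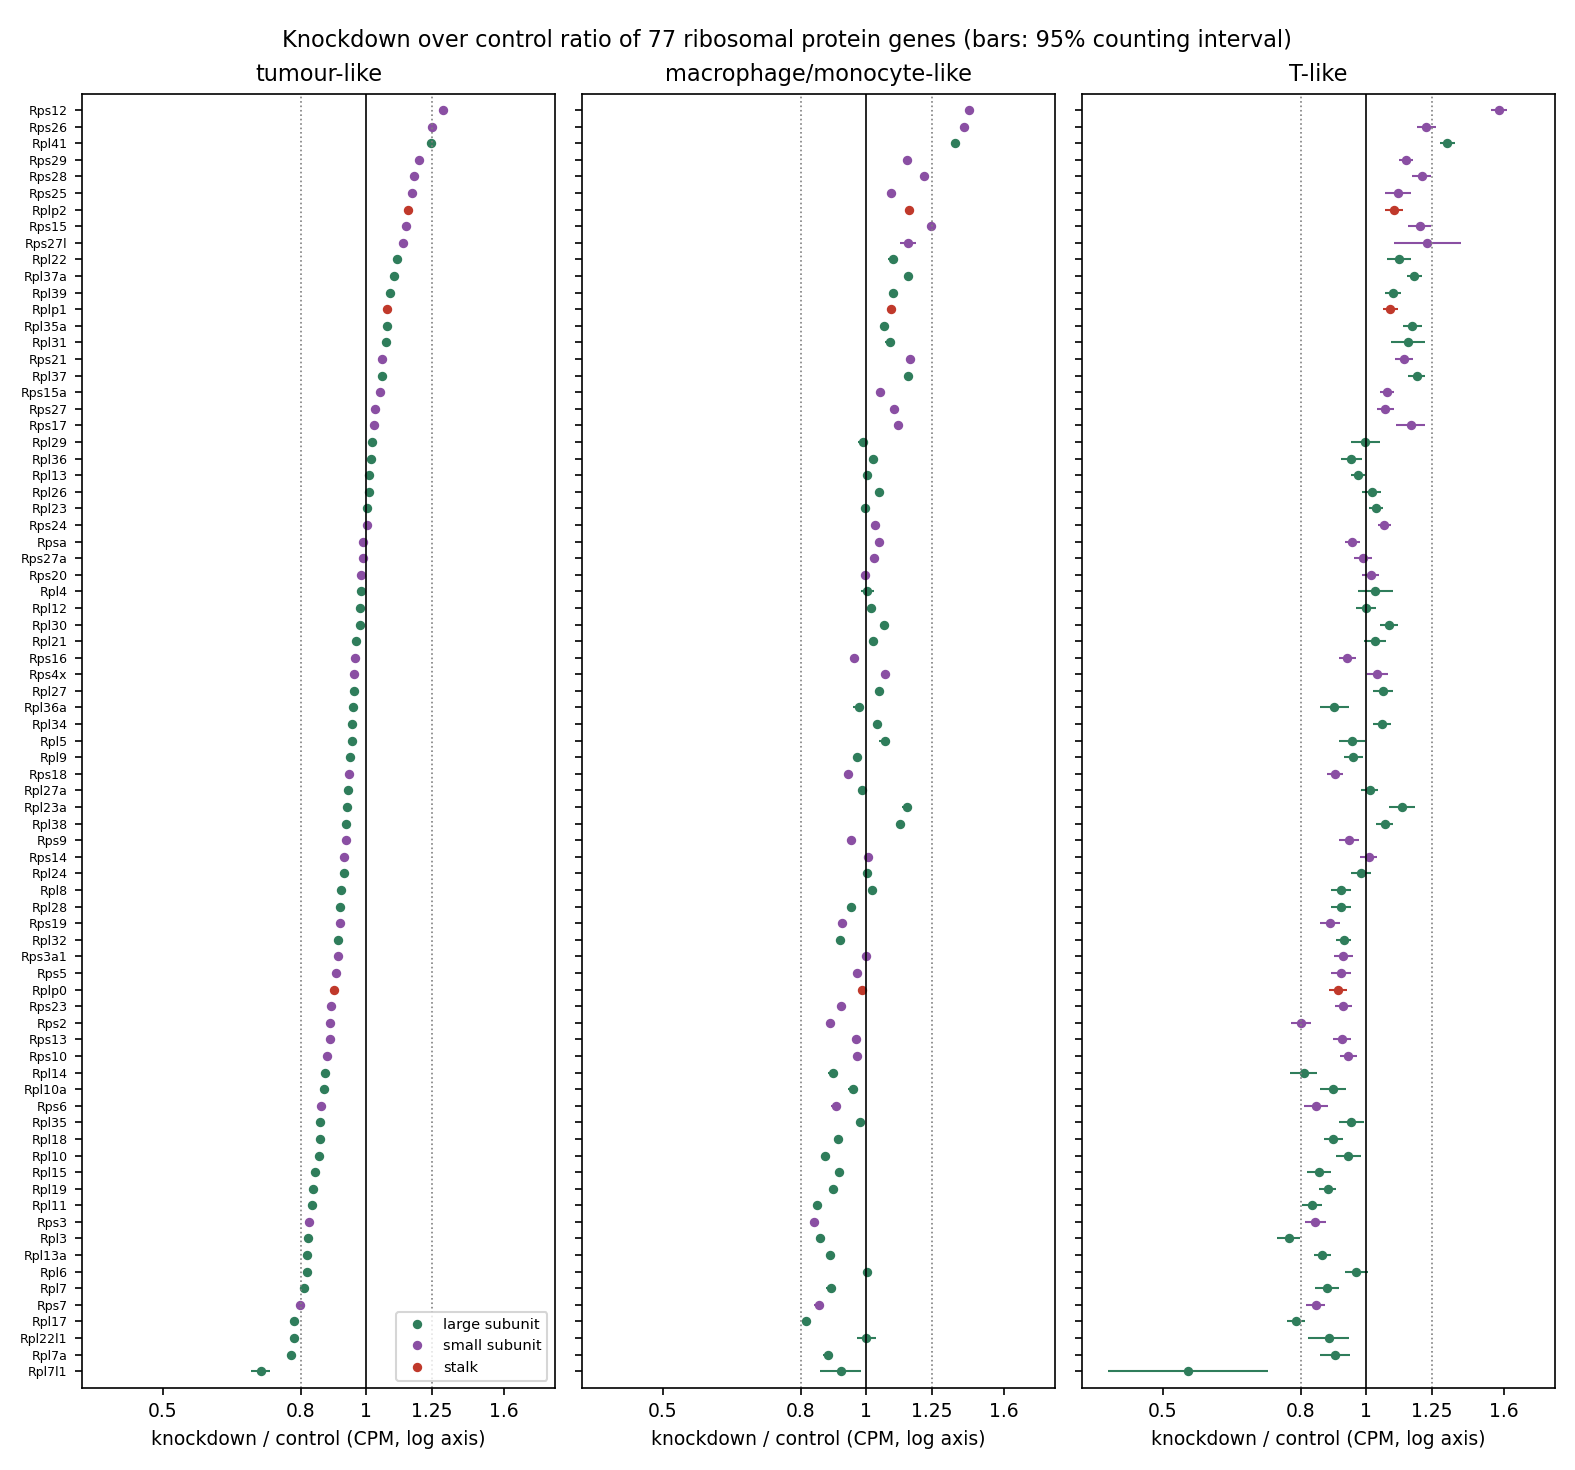
Ratio of knockdown over control CPM (x axis, log scale) of members past the limits in tumour-like, macrophage/monocyte-like and T-like cells, by gene (y axis), with 95% counting intervals. Rps12, Rpl41 and Rps26 lie to the right of 1 in all 3 classes and Rpl17 to the left.

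In macrophage/monocyte-like cells 3 of 80 members were at least 25% higher and 0 at least 20% lower, against 5.9% and 2.98% of 3185 features. The 3 were Rps12, Rps26 and Rpl41, and the count was 5 with clusters at equal weight. Rps12 stood at 2808 CPM in control and 3978 CPM in knockdown, Rps26 at 1698 and 2368 CPM, and Rpl41 at 3253 and 4397 CPM. Rps15, a protein of the small-subunit head, lay just inside the limit at 1463 and 1826 CPM, and Rps28 stood at 2464 and 3002 CPM. At the other end, Rpl17 stood at 2201 and 1794 CPM, Rps3 at 1755 and 1469.5 CPM, and Rpl11 at 2180 and 1839.9 CPM. Rps3 lines the entry of the messenger RNA channel, and Rpl11 is known for binding Mdm2 when it is free of the ribosome.

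In T-like cells 2 of 80 members were at least 25% higher and 3 at least 20% lower, against 10.8% and 11.1% of 3446 features. Rps12 stood at 3661 CPM in control and 5743 CPM in knockdown, a ratio of 1.569 (1.527 to 1.612), and Rpl41 at 4500.0 and 5930.2 CPM. Rpl7l1, at 56.7 and 30.9 CPM, had a ratio of 0.544 with a wide interval (0.414 to 0.716). Rpl17 stood at 3626 and 2856 CPM and Rpl3, a core protein near the peptidyl transferase centre, at 2172 and 1667 CPM. Rps2 and Rpl14 lay just inside the limit, with ratios of 0.801 and 0.808, which were 1.083 and 0.9275 in cells of like depth. The count of 5 members past either limit was 14 with cells at equal weight, 13 with clusters at equal weight, 11 at like depth and 8 after subtracting free RNA.

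NK-like cells had 1 member at least 25% higher and 10 at least 20% lower of 80, against 19.9% and 11.2% of all features tested. Fibroblast-like cells had 14 and 1 of 81, against 11.4% and 20.9%. Neutrophil-like cells had 19 and 2 of 79, against 23.1% and 24.4%, and mast/basophil-like cells 0 and 54 of 79, against 31.9% and 37.5%. These classes hold few cells, and the mast/basophil-like counts rest on 60 and 48 cells. They are pooled counts, and the median member share per mast/basophil-like cell was 21.95% in control and 21.64% in knockdown.

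Rps12 was higher in the knockdown library in every named class except mast/basophil-like cells. Its ratio was 1.32 in NK-like, 1.61 in dendritic-like, 1.52 in fibroblast-like and 1.79 in neutrophil-like cells, against 0.78 in mast/basophil-like cells and 0.94 in cluster 8. The free RNA of barcodes with at most 100 UMIs showed the same side: Rps12 stood there at 5391 CPM in control and 8534 CPM in knockdown, Rpl41 at 6054 and 8354 CPM and Rps26 at 2747 and 4021 CPM. Rpl7l1 stood at 81.6 and 55.7 CPM there. The part of free RNA in the differences within cells was tested only by subtracting it at 10% of UMIs, which left Rps12 on the same side in the 3 large classes.

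The ratio of a member moved with the length of its coding sequence. Over the 80 members, Spearman's rho between ratio and coding length was -0.63 in tumour-like, -0.60 in macrophage/monocyte-like and -0.65 in T-like cells. Over other features it was 0.26, -0.01 and 0.24, and over those under 1300 coding bases -0.0049, -0.12 and 0.02. These are descriptions across genes that share 2 libraries, and genes are not independent replicates.

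Members split at 454.5 coding bases into 40 shorter and 40 longer ones. In tumour-like cells the shorter members took 14.9% of UMIs in control and 15.5% in knockdown, and the longer ones 13.0% and 11.9%. In macrophage/monocyte-like cells the shorter took 9.20% and 9.97% and the longer 7.23% and 6.92%. In T-like cells the shorter took 12.8% and 13.8% and the longer 10.8% and 10.02%. The shorter members had the higher ratio in each of the 12 cell sets and in barcodes with at most 100 UMIs, where the ratios were 1.159 and 1.022. In cells of like depth the quotient of the 2 ratios was 1.104, 1.109 and 1.114 in the 3 large classes.

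**Figure D4:**
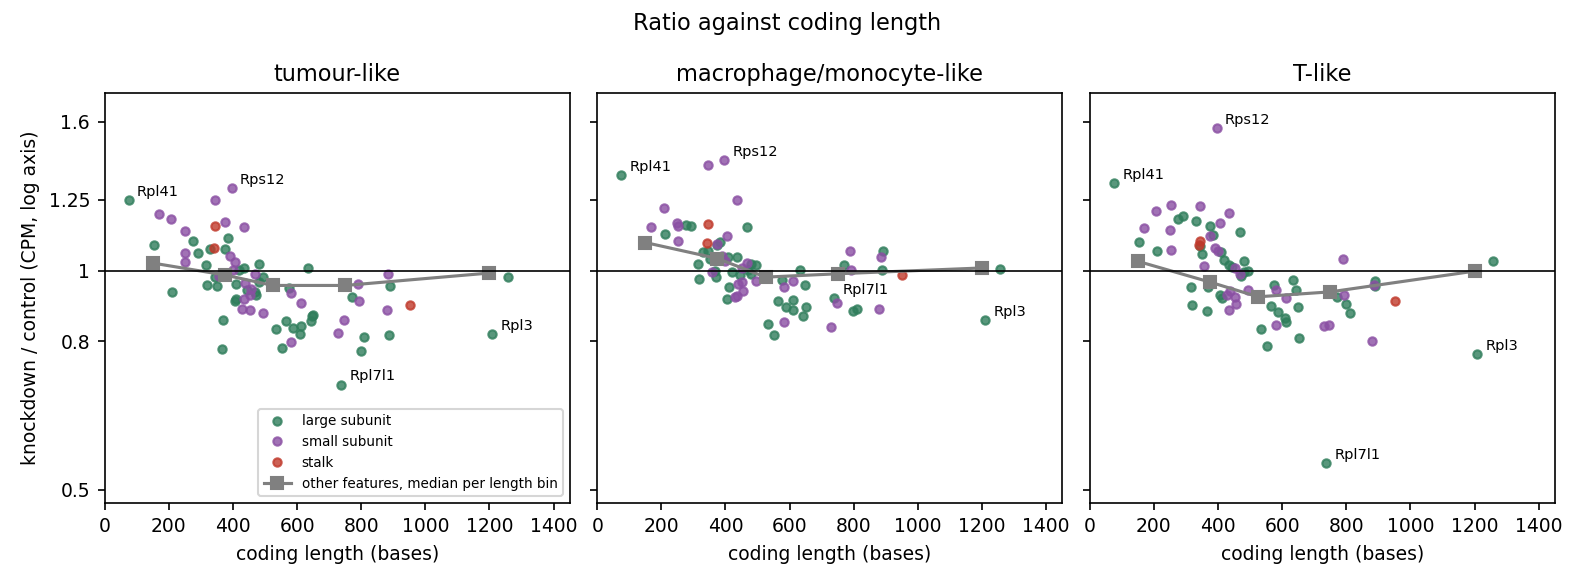
Ratio of knockdown over control CPM (y axis, log scale) against coding length in bases (x axis) in 3 classes, with a dot per plotted member coloured by subunit and grey squares for the median of other features in a length bin. Members under 300 coding bases had a median ratio of 1.09 in tumour-like cells and those of 600 to 900 bases 0.867, while other features of the same lengths had 1.02 and 0.954.

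The make-up of the member UMIs was compared between cell classes. Of 80 members, 11 took a share of the member UMIs at least 25% higher in tumour-like than in macrophage/monocyte-like cells in both libraries, and 12 one at least 20% lower. With the same division by member UMIs, 17.2% and 52.2% of 10343 features were higher and lower. That division centres the members near 1 but shifts other features downward, because members take a larger share of UMIs in tumour-like cells. These percentages therefore cannot tell whether members passed the limits more or less often than other features. The higher ones included Rpl5, Rplp0, Rpl21, Rps12, Rpl41, Rpl37, Rpl30, Rpl8, Rps2 and Rps4x. The lower ones included Rpl7a, Rps27, Rpl11, Rps9, Rps29, Rpl35a, Rpl7l1, Rpl39, Rpl10 and Rpl36a.

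Rps12 took 2.90% of the member UMIs of tumour-like cells in control and 3.83% in knockdown, against 1.81% and 2.63% in the other kept cells. Rps2 took 1.901% and 1.71% in tumour-like cells, against 1.32% and 1.11%. Rps29 was the reverse, with 3.58% and 4.00% in macrophage/monocyte-like cells, against 1.74% and 2.11% in the others. Rps9 took 1.57% and 1.45% there, against 0.985% and 0.928%. In T-like cells Rps27 took 1.73% and 1.83%, against 1.08% and 1.12%, and Rpl13a 1.62% and 1.38%, against 1.07% and 0.884%. Rps27l, a p53-responsive paralogue of Rps27, took only 0.0978% and 0.119% in T-like cells, against 0.222% and 0.254%. The order of class and rest was thus the same in both libraries for these members.

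**Figure D5:**
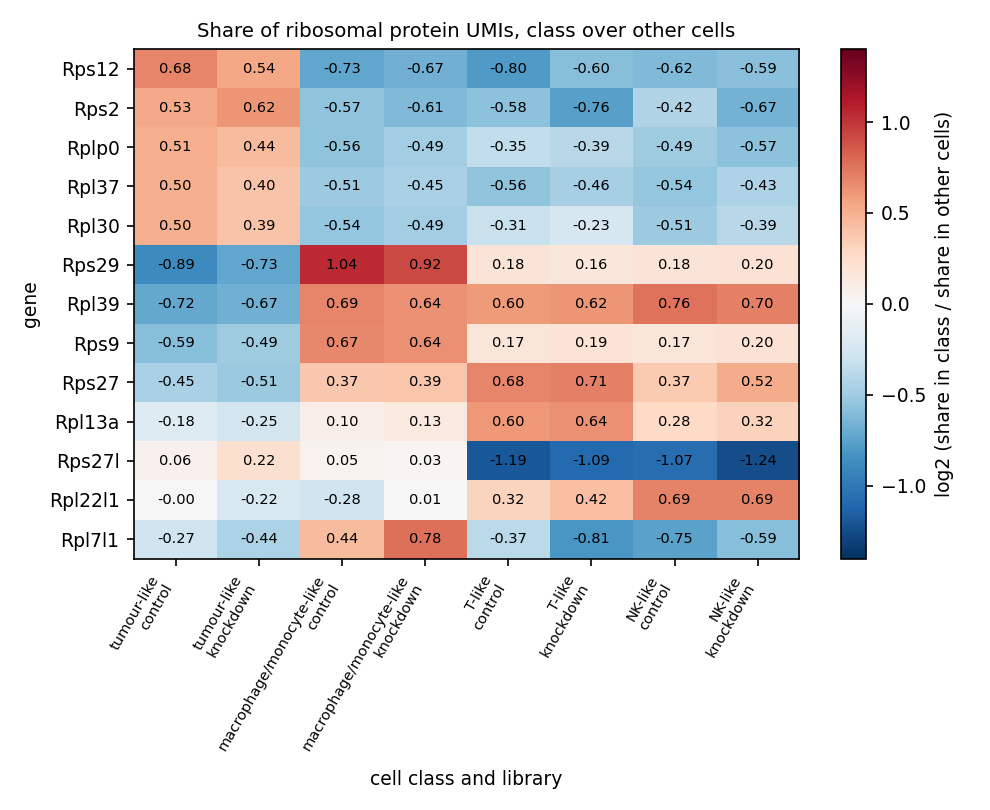
Colour and number give the log2 of a gene's share of the member UMIs in a class over its share in all other kept cells, for 13 members (y axis) in 4 classes of each library (x axis). Rps12 is positive in tumour-like cells (2.90% against 1.81% in control) and Rps29 in macrophage/monocyte-like cells (3.58% against 1.74%), and each of these has the same sign in both libraries.

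Members with a paralogue ending were set beside their stem genes. Rpl22, at 1952 CPM in control and 2167 CPM in knockdown, had a ratio of 1.11 in tumour-like cells, on the other side of 1 from Rpl22l1. Rpl22l1 overlaps an antisense gene on the opposite strand. Rpl7 stood at 2596 and 2102 CPM, on the same side as Rpl7l1. Rps27l stood at 622 and 705 CPM and Rps27 at 2825 and 2905 CPM, and the Rps27 ratio of 1.028 was 0.968 in cells of like depth.

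The 3 members under the limits in the large classes were rare or absent. Rpl10l, an intronless copy of Rpl10 known from testis, had 0 UMIs in the kept cells of both libraries. Rpl39l, a paralogue of Rpl39 also known from testis, had 141 UMIs in control and 105 in knockdown, of which fibroblast-like and pericyte/smooth muscle-like cells held 83.0% and 60%. Its level in fibroblast-like cells was 64.2 CPM (51.8 to 78.6) in control and 46.4 CPM (33.8 to 62.1) in knockdown, against 0.0389 and 0.0497 CPM in tumour-like cells. Rpl3l, the paralogue of Rpl3 in striated muscle, had 114 and 117 UMIs. It stood at 269.6 and 247.7 CPM in the unnamed cluster 26, led by the muscle genes Acta1, Tnnc2 and Mylpf, on 21 and 8 UMIs. Most of its UMIs lay in other clusters. Among macrophage/monocyte-like clusters, cluster 14 held 15 and 22 UMIs, at 13.7 and 21.6 CPM, and cluster 4 held 16 and 14 UMIs. The protein-coding gene Msrb1 lies 499 bases from Rpl3l on the same strand, and its part in these UMIs was not tested.

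Genes that make or assist the ribosome were counted in tumour-like cells with the same limits. Of 22 ribosome biogenesis genes that passed, 5 were at least 25% higher and 0 at least 20% lower, with a median ratio of 1.153. For this and the following lists, the shares over all 3253 features were 9.74% and 9.31%. The nucleolar helicase Ddx21 stood at 114 CPM in control and 174 CPM in knockdown, nucleolin (Ncl) at 566 and 703 CPM and Npm1 at 1821 and 1942 CPM. A list of 7 genes, made of elongation factors and of Tpt1, which is not one, had 0 higher and 1 lower and a median of 0.893. The lower one was Tpt1, at 5005 and 3844 CPM, so that no elongation factor passed either limit. Eef1a1 stood at 4247 and 3545 CPM. Both are known to carry a pyrimidine tract like the members.

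Of 28 initiation factor genes 0 were higher and 1 lower, Eif4h at 130.2 and 99.2 CPM, and of 51 mitochondrial ribosomal protein genes 2 were higher and 1 lower, with a median of 1.002. Of 9 snoRNA host genes 2 were higher and 0 lower, among them Snhg9 at 43.7 and 87.3 CPM, while Gas5 stood at 1342 and 1210.1 CPM. Of the ribosomal proteins outside the symbol rule, Fau had a ratio of 1.04 and Rack1 of 0.908.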

How the data were processed

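The deposited matrices hold raw UMI counts per gene and barcode that the authors made with Cell Ranger (version 4, per the file headers), from 1 library of the 10x 3' v3.1 kit per group, per the labels' protocols. The sources used here do not give the genome build. Coding lengths come from GENCODE vM21 on GRCm38 by gene ID, and starts from RefSeq.

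Barcodes with at least 500 UMIs, at least 250 genes and at most 20% mitochondrial UMIs were kept unless they resembled free RNA (tested under 3000 UMIs) or doublets (464 in control, 817 in knockdown). The kept cells were clustered without the members on 2000 variable genes, 30 components and 15 neighbours at resolution 1 (leidenalg 0.10.2, scikit-learn 1.9.0). Clusters low in Xist could only be called tumour-like and the others only a host class, from at least 3 markers. A cluster stayed unnamed where its 10 leading genes held more markers of another class. It also stayed unnamed where it was shallow and its leading genes held no marker of its own class. UMIs were summed per class and library. Intervals (scipy 1.17.1) are exact Poisson for levels, Clopper-Pearson for shares and exact conditional for ratios, at 95%. They cover counting error only. Counts of members past a fold used features with at least 50 CPM in 1 library and 50 UMIs over both. With 1 library per group no test was run.

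Named members are the 5 most abundant in tumour-like cells, the 5 highest and lowest ratios in each of 3 classes, the 3 highest and lowest shares of member UMIs, paralogues with their stems and rare members. Other members named were chosen after their values were seen. Some members counted here are not reported by name. Members and lists were chosen with earlier results of these data known. The code was checked on simulated data. The alternatives of like depth and of adding cluster 8 were chosen after seeing the data.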

Additional observations from a re-analysis of the deposited data

Results flagged for a closer look

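The members' share was lower in the knockdown library in tumour-like cells (ratio 0.984) and NK-like cells (0.962) and higher in macrophage/monocyte-like (1.028), T-like (1.009) and dendritic-like cells (1.057). These pooled ratios lie on opposite sides of 1, and the difference between classes was not tested. The sides are not stable. In the depth band chosen for each class the ratio was 1.003 in tumour-like and 0.9772 in macrophage/monocyte-like cells, while some other bands kept the main side. The ratio was 0.9943 in T-like cells of 2000 UMIs or more and 1.029 in NK-like cells at equal weight.

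Cells outside the named classes also held many member UMIs. In cluster 8 members took 33.4% of the knockdown UMIs, and the cluster made up 9.03% of the kept knockdown cells against 0.985% of the kept control cells. In barcodes of more than 100 and up to 400 UMIs, which were not kept as cells, members took 29.5% of the UMIs in knockdown and 21.1% in control.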

How the results depend on the processing

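No paired analysis was possible because each group holds 1 library, and for the same reason no replicate could be left out. The pooled share ratio had no stable side. In tumour-like cells (0.984) it was 0.983 with cells at equal weight, 0.9852 at no more than 10% mitochondrial UMIs, 0.9807 without mitochondrial genes, 0.9761 after subtracting 10% free RNA, 0.9847 with ribosomal genes outside the symbol rule and pseudogene features added, and 1.003 at like depth. In macrophage/monocyte-like cells (1.028) it was 1.058 with cells at equal weight, 1.021 without mitochondrial genes, 1.018 after subtraction, 1.03 with the added genes, 0.9772 at like depth, 1.025 at 2000 UMIs or more, 1.02 without empty-droplet and doublet removal and 1.061 with clusters at equal weight. In T-like cells (1.009) it was 1.122 at equal weight, 0.9943 at 2000 UMIs or more, 1.004 at the mitochondrial limit, 1.003 without mitochondrial genes, 1.002 after subtraction, 1.013 with members among the clustering genes, 1.071 with clusters at equal weight and 1.093 at like depth. At equal weight NK-like and epidermis-like ratios turned to 1.029 and 1.072, and without droplet removal the pericyte/smooth muscle-like ratio was 0.9324.

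The tumour-like over macrophage/monocyte-like share was 1.697 in control and 1.624 in knockdown. It was 1.718 and 1.596 at equal weight, 1.703 and 1.634 at the mitochondrial limit, 1.713 and 1.646 without mitochondrial genes, 1.798 and 1.724 after subtraction, 1.777 and 1.649 with clusters at equal weight, 1.685 and 1.611 with the added genes, 1.686 and 1.731 at like depth, and 1.704 and 1.63 with cluster 8 added. In control it was also 1.691 at 2000 UMIs or more and 1.683 without droplet removal.

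At 1.5-fold, 0 members passed in tumour-like cells (7 in the main count), 0 in macrophage/monocyte-like cells (3) and 2 in T-like cells (5). The macrophage/monocyte-like count was 5 with clusters at equal weight and 5 with a limit of 1 UMI. The T-like count was 14 at equal cell weight, 8 after subtraction, 13 with clusters at equal weight and 11 at like depth. The count of members apart between tumour-like and macrophage/monocyte-like cells fell from 23 to 6 at 1.5-fold.

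Single ratios that turned at like depth were Rps2 1.004 and Rps27 0.9683 in tumour-like cells, Rpl30 0.9693, Rpl3l 0.901 and Rps27 0.9486 in macrophage/monocyte-like cells, and Rpl10 1.095, Rpl7a 1.031, Rplp0 1.011, Rps2 1.083, Rps27 0.9468 and Rps9 1.014 in T-like cells. At equal cell and cluster weight Rplp0 was 1.023 and 1.008 in macrophage/monocyte-like cells, and in T-like cells Rpl10 was 1.062 and 1.016, Rplp0 1.047 and 1.024 and Rps9 1.031 and 1.03. The cause was not tested. Rps12 kept its side throughout, from 1.279 to 1.31 in tumour-like, 1.328 to 1.508 in macrophage/monocyte-like and 1.471 to 1.84 in T-like cells.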
